A study of Mus musculus with 20 samples.

Results

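The genes described here are the members of the albumin family that share a stretch of mouse chromosome 5 (Alb, Afp, Afm and Gc), together with 2 genes that are named with Afp in studies of the fetal liver (H19 and Zhx2). They were found by their symbols in the gene tables, which gave 6 genes, each at 1 locus, of 25444 loci in all. Each was followed through the livers (left lateral lobe) of 20 mice aged 20 weeks, with 5 females and 5 males from each of the inbred strains C57BL/6N (B6) and C3H/HeN (C3). The mice were untreated, carried no engineered allele in their labels, and were housed singly. Females and males were kept in separate rooms, so a difference between the sexes cannot be told apart from a difference between the rooms. Strand-specific libraries of total RNA depleted of ribosomal RNA were sequenced in 3 pools of 8, 5 and 7 libraries, with 1 or 2 mice of each group in each pool. Depth lay between 27370921 and 46835745 counts per library, so that 3 counts, the least taken here as detection, corresponded to between 0.0641 and 0.110 CPM (counts scaled to a library of fixed size). The 6 hepatocyte markers checked (Ttr, Apoa1, Tat, Cps1, Pck1 and G6pc) summed to at least 20388 TPM (counts divided by gene length and scaled to a fixed sum) in every library, and the 3 skeletal muscle markers (Acta1, Ckm and Myh4) to at most 0.212 TPM. Counting error alone did not account for the differences among livers of a group, as the 40 pairs gave chi-square values of 19.9 to 192 for each degree of freedom.

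Albumin is the most abundant protein of plasma and is made by hepatocytes, where it keeps up the osmotic pressure of blood and carries fatty acids, bilirubin and drugs. α-Fetoprotein (Afp) takes this place in the fetus and is shut off in the liver after birth, afamin (Afm) carries vitamin E, and the vitamin D binding protein (Gc) carries vitamin D and its metabolites and binds actin released from damaged cells. The genes arose by duplication and still lie close together. H19 is an imprinted long noncoding RNA, transcribed from the maternal chromosome, that is abundant in fetal liver and falls after birth, and Zhx2 is a zinc finger and homeobox protein known from mouse genetics as a repressor of Afp and H19 in the adult liver.

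Alb (Entrez identifier 11657) lies at chr5:90889896-90905628 on the plus strand of mm9, the build of the deposited counts. Afp (11576, chr5:90919740-90937933) and Afm (280662, chr5:90947975-90982570) follow on the same strand after gaps of 14.1 kb and 10041 bases, and no other locus of the annotation lies between Alb and Afm. The next locus, 5830473C10Rik (622307, chr5:90990235-91026932, plus strand), an older symbol of the albumin superfamily gene Albfm1, starts 7.7 kb after Afm. Gc (14473, chr5:89846536-89886923) lies 1003 kb before Alb on the minus strand. H19 (14955) lies at chr7:149761435-149764051 on the minus strand, 72.6 kb from Igf2, and holds Mir675 within it on the same strand, where read pairs assigned to both loci were left out of the counts. Zhx2 (387609) lies at chr15:57526222-57671387 on the plus strand, 207.2 kb from its relative Zhx1.

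The 250 bases before the start of the 4 genes of chromosome 5 are shown because Alb and Afm gave closely matched values over the 20 livers, and so that they can be read beside their relatives Afp and Gc. They are RefSeq promoter sequences of build GRCm38.p6 and are given 5′ to 3′ on the strand of the gene, at chr5:90460620-90460869 (plus) for Alb, chr5:90490464-90490713 (plus) for Afp, chr5:90518699-90518948 (plus) for Afm and chr5:89457899-89458148 (minus) for Gc. Capitals mark matches to the letters TATAAA of the TATA box, a core promoter element, searched on both strands.
Alb: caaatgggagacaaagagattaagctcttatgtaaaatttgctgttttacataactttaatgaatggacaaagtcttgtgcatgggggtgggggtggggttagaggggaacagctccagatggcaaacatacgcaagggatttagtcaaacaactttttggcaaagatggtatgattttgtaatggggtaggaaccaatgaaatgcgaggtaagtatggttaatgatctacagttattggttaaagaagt
Afp: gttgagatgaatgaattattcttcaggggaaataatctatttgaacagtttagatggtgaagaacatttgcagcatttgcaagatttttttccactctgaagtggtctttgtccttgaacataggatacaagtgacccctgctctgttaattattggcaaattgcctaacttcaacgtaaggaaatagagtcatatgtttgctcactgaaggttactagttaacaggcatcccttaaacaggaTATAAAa
Afm: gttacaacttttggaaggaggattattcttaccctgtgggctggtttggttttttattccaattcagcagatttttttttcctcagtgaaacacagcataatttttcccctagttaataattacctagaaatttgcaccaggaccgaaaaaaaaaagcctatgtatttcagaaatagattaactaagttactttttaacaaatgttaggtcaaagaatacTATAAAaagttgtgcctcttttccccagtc
Gc: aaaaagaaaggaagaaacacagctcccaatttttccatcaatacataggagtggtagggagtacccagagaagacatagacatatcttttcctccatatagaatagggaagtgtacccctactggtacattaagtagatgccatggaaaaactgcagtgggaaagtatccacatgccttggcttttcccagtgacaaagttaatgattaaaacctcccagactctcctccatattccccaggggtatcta

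The letters were found once in Afp, 7 to 2 bases before the annotated start, and once in Afm, 30 to 25 bases before it, both on the strand of the gene. They were not in the windows of Alb and Gc, and bases after the annotated starts were not searched. Of 32851 promoter windows of the same length, 4063 (12.4%) held them on either strand. The share of G and C was 39.2% in Alb, 36.0% in Afp, 33.2% in Afm and 42.0% in Gc, below the median of 52.4% over all windows. The motif was picked after these sequences had been read, so the matches are a description of the windows and no test.

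On a scale that divides by gene length (TPM), the genes kept a fixed order in level over the 20 livers. Alb, with a lowest, median and highest level of 52470, 89499 and 137667 TPM, was above Gc, with 6562, 7627 and 9004 TPM, in all 20 livers. Afm followed with 258, 453 and 662 TPM, and Zhx2 with 5.60, 9.18 and 13.1 TPM. None of these ranges overlapped. Afp was at 0.186, 0.630 and 1.76 TPM and H19 at 0.0217, 0.217 and 1.08 TPM. Afp was above H19 in 16 of 20 livers, and the ranges of these neighbours overlapped, so they were not told apart in every liver. The median ratio of Alb to Afp, its fetal counterpart, was 147497 in TPM. Gc varied least, by 1.37-fold from the lowest to the highest liver. Alb varied 2.62-fold, Afm 2.57-fold and Zhx2 2.33-fold, and the 2 genes with few counts, Afp and H19, 9.49-fold and 49.9-fold.

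**Figure D1:**
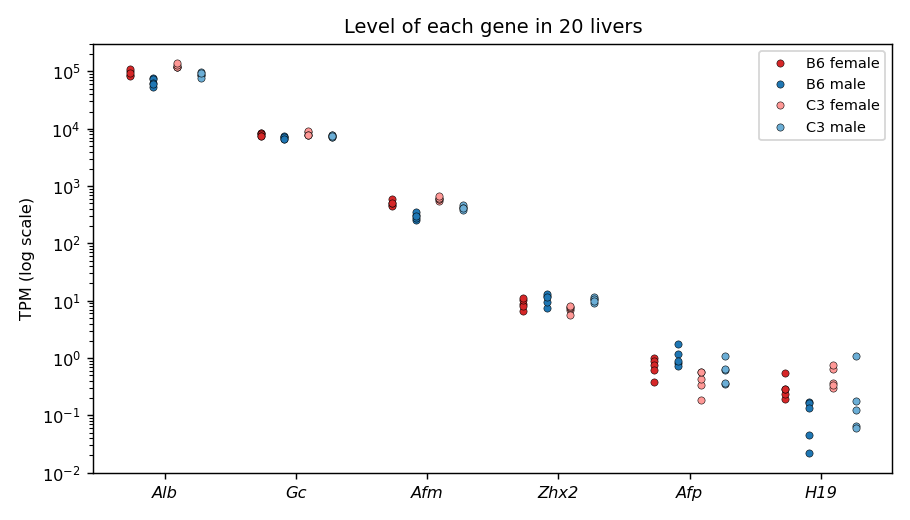
Level of each gene (TPM, log scale) in the livers of B6 females, B6 males, C3 females and C3 males, with 1 point per liver and 5 livers per group. The ranges of Alb, Gc, Afm and Zhx2 do not overlap with each other, and those of Afp and H19, both below 2 TPM, do.

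Alb was the gene with the most counts in each of the 20 libraries. Female livers had more Alb RNA than male livers and C3 livers more than B6 livers, when Alb is taken as a share of all counts. In B6 females the share was 8.39, 8.11, 10.1, 10.7 and 8.95% in mice 1 to 5, a mean of 9.23% ± 1.09 (SD, n = 5). In B6 males it was 7.78, 7.38, 5.41, 6.38 and 6.08%, a mean of 6.61% ± 0.965. C3 females had 11.8, 11.5, 11.7, 13.0 and 13.2%, with a mean of 12.2% ± 0.775. All 5 C3 females thus lay above every other liver, and all 5 B6 males lay below every female of either strain. C3 males had 9.94, 8.65, 8.68, 7.75 and 9.37%, a mean of 8.88% ± 0.827, and overlapped with B6 females and, by 1 liver, with B6 males. The gene next to Alb in each library, which was Trf, Apoe, C3, Apob or Serpina3k, held between 1.66 and 3.10% of counts. Counting error was small beside the spread of mice, since 95% Wilson intervals of these shares were at most 0.0229 percentage points wide, and it is the only error they cover. In bulk liver, fewer cells of a type and less RNA per cell cannot be told apart.

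The female minus male difference in the Alb share was 2.63 percentage points in B6 (ratio of means 1.40) and 3.34 in C3 (1.38). The C3 minus B6 difference was 2.99 points in females (1.32) and 2.27 in males (1.34). In two-sided exact permutation tests over every split of 5 against 5 livers, p was 0.00794, the smallest these splits can give, for both sex differences and for the strain difference in females (Benjamini-Hochberg adjusted p = 0.0106 over the 4 comparisons). For the strain difference in males p was 0.0159 (adjusted p = 0.0159), since the lowest C3 male (7.75%) lay just under the highest B6 male (7.78%). Within pools 1, 2 and 3 the sex difference was 3.07, 2.27 and 2.36 points in B6 and 4.40, 2.10 and 3.86 in C3, and the strain difference 3.26, 1.70 and 3.36 in females and 1.93, 1.87 and 1.85 in males. Every within-pool difference thus had the sign of the pooled one. Permuting within pools left 72 splits for the sex difference in B6 and the strain difference in females, and 54 for the others. The permutation p was 0.0278 with 72 splits and 0.0185 with 54, the smallest these splits can give. The adjusted p was 0.0278 for each comparison. The counts of the 24 major urinary protein loci, which moved with sex, held between 0.156 and 2.43% of a library, and without them the differences were 2.54, 3.28, 2.98 and 2.24 points in the same order.

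**Figure D2:**
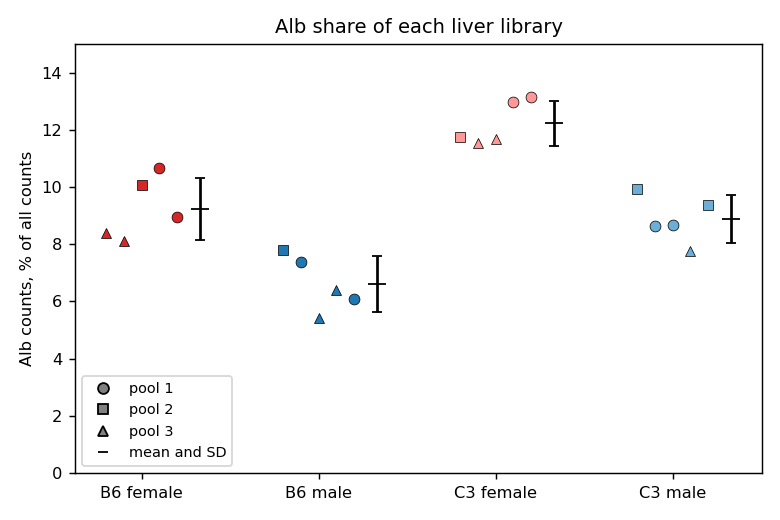
Share of all counts assigned to Alb (%, axis from 0) in each liver, by group, with the mean and SD of 5 mice beside the points and the pool given by the marker shape. C3 females lie between 11.5 and 13.2%, above all other livers, and B6 males between 5.41 and 7.78%.

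The same gene was then tested against all other genes, using edgeR (quasi-likelihood test, counts scaled by TMM). P-values were adjusted over the 13704 genes that passed the filter on low counts, and the 2 criteria for a call were an adjusted p below 0.001 and a change of more than 0.5, up or down, on the log2 scale. All 6 members passed this filter. H19 did so through the 5 C3 females, which were all over the limit of 0.283 CPM, against 3 B6 females, 0 B6 males and 1 C3 male. Over all genes tested, 6.34% were called between females and males in B6 and 6.90% in C3, 9.40% between C3 and B6 in females and 9.64% in males, and 0.401% in the sex-by-strain interaction. Of the 6 members, 1 was called in each sex comparison, 0 between the strains in females, 1 between the strains in males and 0 in the interaction, so that 3 of the 30 tests gave a call. With so few members, the shares called by edgeR cannot be set apart from those of all genes. At an unadjusted p under 0.05 the counts were 5, 4, 4, 4 and 1, and DESeq2 called 1, 1, 0, 1 and 0. The share of all genes under these 2 rules is not given here. Neither these counts nor those of the gene lists below are thus set against all genes. The median log2 fold change of all genes tested lay between 0.0018 and 0.0195 in the 5 comparisons.

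Alb itself had the adjusted p of a called gene in 3 comparisons but stayed under the fold change required. Its scaled level in B6 was 87984 ± 13133 CPM for females and 66001 ± 10482 for males, and in C3 122584 ± 11762 and 93621 ± 8933 (SD, n = 5). The log2 fold change of females over males was 0.42 in B6 (SE 0.09, adjusted p = 0.00168) and 0.46 in C3 (SE 0.09, adjusted p = 9.6e-04). C3 over B6 gave 0.49 in females (SE 0.09, adjusted p = 3.5e-04) and 0.45 in males (SE 0.09, adjusted p = 8.8e-04). The interval of each spanned the required 0.5. In 2 of the 4, the side on which the estimate fell rested on single livers. It rose to 0.54 and 0.55, a call, for the strain difference in females without B6 female 4 or without C3 female 1, and to 0.53, also a call, for the sex difference in C3 without C3 female 1. In CPM the ranges of B6 females and males overlapped, while the groups did not overlap in the other 3 comparisons. Among all genes tested, 10.9 and 13.1% did not overlap between the sexes in B6 and C3, and 12.8 and 15.1% between the strains in females and males.

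Afm was higher in females than in males of B6, and higher in C3 than in B6 males. In mice 1 to 5, its scaled level was 414, 397, 484, 574 and 463 CPM in B6 females and 315, 359, 257, 261 and 304 CPM in B6 males. In C3 females it was 526, 556, 552, 626 and 634 CPM, and in C3 males 443, 474, 446, 405 and 430 CPM. Every B6 female was above every B6 male and every C3 female above every C3 male. Between the strains, all C3 males were above all B6 males, while the highest B6 female lay within the range of the C3 females. The means were 466 ± 69.6, 299 ± 41.9, 579 ± 48.3 and 440 ± 25.3 CPM (SD, n = 5).

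Afm was called between the sexes in B6, with a log2 fold change of 0.64 in females over males (SE 0.07, 95% interval 0.50 to 0.78, adjusted p = 8.2e-07). It was also called between C3 and B6 in males, at 0.53 (SE 0.07, 95% interval 0.39 to 0.67, adjusted p = 5.3e-06). The sex difference in C3 was 0.43 (SE 0.07, adjusted p = 1.1e-04) and the strain difference in females 0.32 (SE 0.07, adjusted p = 0.0010), neither of which met both criteria. That Afm passed in B6 and not in C3 does not set the strains apart, since the interaction was -0.21 (adjusted p = 0.265). Within pools 1, 2 and 3 the log2 difference between the sexes in B6 was 0.64, 0.62 and 0.65, and that between the strains in males 0.48, 0.47 and 0.64. The call between the strains in males lay close to the fold change required, and with upper quartile scaling (0.50), library totals (0.46) or limma on TPM (0.47) it was lost.

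The likeness of Alb and Afm went beyond the group means. In TPM the ratio of Alb to Afm lay between 179 and 243 over the 20 livers, a 1.36-fold range, although each gene alone varied more than 2.5-fold. The ratio of Alb to Gc lay between 7.16 and 17.99, a 2.51-fold range. Of the 13704 genes tested, the one whose profile over the 20 livers was closest to that of Afm, by the root mean square difference of centred log2 CPM, was Alb (0.122, r = 0.945), followed by Itih2 (0.142) and Cenpq (0.145). Gc came at rank 1257 in the same order, with 0.337. After the group and the pool had been removed from log2 CPM, Alb and Afm still varied together among the mice of a group (Pearson's r = 0.86, Spearman's rho = 0.78, permutation p = 2.0e-05 and 1.0e-04, adjusted p = 3.0e-04 and 0.0015 over 15 pairs of members). Without the 2 livers farthest from the median, r was 0.82. The permutations shuffled residuals over all 20 livers after group and pool had been fitted, so these p-values may be too small. The other 14 pairs gave r between -0.31 and 0.36, with adjusted p of 0.411 or more. Levels of all genes of a library share its depth and scaling factor.

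**Figure D3:**
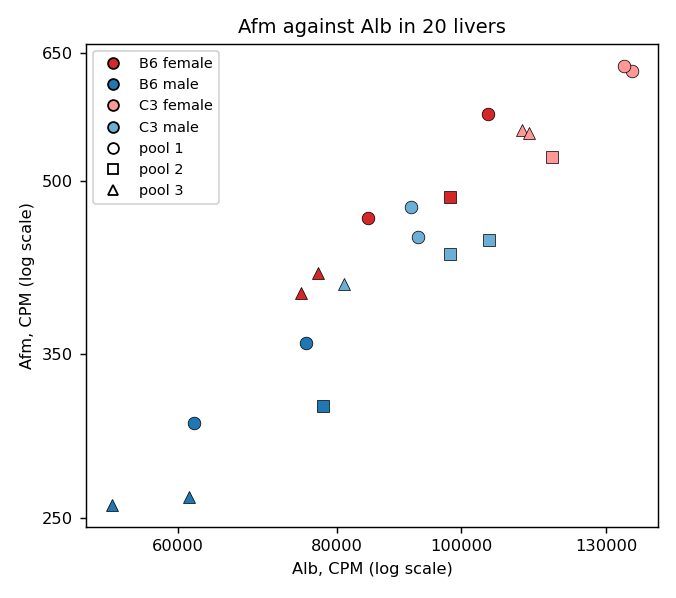
Scaled level of Afm (CPM, log scale) against that of Alb (CPM, log scale) in 20 livers, coloured by group and shaped by pool. The livers run from B6 males at the lower left to C3 females at the upper right, and the ratio of the genes in TPM stays between 179 and 243.

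The gene beyond Afm, 5830473C10Rik, averaged 65.8 ± 7.42 CPM in females and 51.0 ± 4.41 in males of B6, and 67.6 ± 8.54 and 57.2 ± 5.96 in those of C3 (SD, n = 5). It was not called in any comparison. Its log2 fold change of females over males was 0.37 in B6 (adjusted p = 0.00728) and 0.22 in C3 (adjusted p = 0.0814), and that of C3 over B6 was 0.04 in females and 0.18 in males.

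Gc, at the other end of the region, was the most even member. It lay between 5941 and 6844 CPM in B6 females, 5898 and 6546 in the males, 6557 and 7536 in C3 females and 6743 and 7286 in the males, with means of 6545 ± 371, 6202 ± 242, 7050 ± 373 and 6977 ± 238 CPM (SD, n = 5). It was not called in any comparison. The log2 fold change of females over males was 0.08 in B6 (95% interval -0.03 to 0.19) and 0.01 in C3 (95% interval -0.10 to 0.12), so that a sex difference as large as the 0.5 required lay outside both intervals. In males the strains did not overlap, and C3 over B6 gave 0.18 (SE 0.05, adjusted p = 0.0152), and C3 females over B6 females gave 0.11 (adjusted p = 0.126).

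Among the other neighbours on chromosome 5, Slc4a4, a bicarbonate transporter, was higher in females in B6 (log2 fold change 0.58, SE 0.09, adjusted p = 1.2e-04) and C3 (0.77, SE 0.10, adjusted p = 7.2e-06). Its call in B6 was lost without the pool term (adjusted p = 0.0022) and with only the groups compared (adjusted p = 0.0012). Cox18, a mitochondrial assembly factor for cytochrome oxidase, was lower in females in B6 (-0.55, SE 0.09, adjusted p = 1.6e-04) and C3 (-0.58, SE 0.09, adjusted p = 8.4e-05). It was higher in C3 females (0.51, adjusted p = 2.2e-04) and C3 males (0.55, adjusted p = 1.0e-04) than in their B6 counterparts, in each case close to the fold change required and lost with library totals. Without the pool term all 4 calls of Cox18 were lost. Leaving out single livers ended the call of Cox18 between the sexes in B6 (without B6 female 5) and between the strains in males (without C3 male 4) and, in 4 of 10 runs, in females. Of the 13 neighbours of the members listed here, 11 were tested, and the third called was Fam83a near Zhx2, higher in C3 females (2.58, SE 0.35, adjusted p = 1.2e-05) at levels of 0.123 CPM in B6 females and 0.703 in C3 females. Fam83a passed the filter on low counts through the C3 livers, with at least 0.390 CPM in every C3 female and 0.374 in every C3 male. Every B6 female was at 0.217 CPM or less, so this call is a description and no test. In numbers, 1 neighbour was called higher and 1 lower in each sex comparison, 2 higher (Fam83a among them) and 0 lower between the strains in females, and 1 higher and 0 lower in males. Their median log2 fold changes were -0.03, 0.13, 0.05 and 0.10 in that order.

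Of 11 genes for partners of these proteins and for handling their ligands, 7 were tested. Lrp2 (megalin), the endocytic receptor that takes up Gc with vitamin D in the kidney, was lower in females in B6 (-2.53, SE 0.28, adjusted p = 1.9e-06) and C3 (-1.69, SE 0.29, adjusted p = 2.3e-04, a call lost without any 1 of C3 female 4, C3 female 5 and C3 male 3), at no more than 3.98 CPM in any group mean. Cyp2r1, the vitamin D 25-hydroxylase, was lower in C3 than B6 males (-1.09, SE 0.14, adjusted p = 6.3e-06). Without the pool term the calls of Cyp2r1 (adjusted p = 0.0117) and of Lrp2 in C3 (adjusted p = 0.0013) were lost. No other gene of this list, which holds Fcgrt, the receptor that spares albumin from breakdown, was called by edgeR. Between the strains in females 0 were called, by edgeR or DESeq2, and 6 had an unadjusted p under 0.05. Those 6 went both ways, with log2 fold changes from -0.52 to 0.54, and their number is not set against all genes. The list's median log2 fold change was -0.21 and 0.10 between the sexes in B6 and C3, and -0.22 and -0.20 between the strains in females and males.

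A list of 14 transcription factors known from the promoters and enhancers of Alb and Afp, among them Hnf4a, Cebpa and Zbtb20, was tested in full. In edgeR 0 were called between the sexes, between the strains in males or in the interaction, and 1 was called between the strains in females. At an unadjusted p under 0.05 there were 6 and 4 between the sexes in B6 and C3, 3 and 4 between the strains in females and males, and 3 in the interaction, and DESeq2 called 1, 0, 1, 1 and 0. Neither of these rules was set against all genes. The gene called by edgeR was Foxa3, a forkhead factor of the hepatocyte, at 21.7 ± 3.21 and 38.8 ± 10.9 CPM in B6 females and males and 56.3 ± 17.2 and 66.6 ± 10.9 CPM in the C3 mice (SD, n = 5), with a log2 fold change of C3 over B6 of 1.39 in females (SE 0.19, adjusted p = 1.6e-05) and 0.80 in males (SE 0.19, adjusted p = 0.0033). The medians of the list were 0.03 and -0.14 between the sexes in B6 and C3 and -0.09 and 0.19 between the strains in females and males.

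Afp had few counts, although it was over the 3 counts taken as detection in every liver. Its raw counts in mice 1 to 5 were 47, 41, 11, 27 and 21 in B6 females and 26, 25, 74, 46 and 30 in the males, and 10, 25, 8, 15 and 19 in C3 females and 17, 41, 13, 29 and 11 in the males. Scaled for depth, these gave means of 0.685 ± 0.218, 1.09 ± 0.425, 0.417 ± 0.164 and 0.662 ± 0.323 CPM (SD, n = 5). The groups overlapped in every comparison. The highest liver was B6 male 3, with 1.81 CPM, and the lowest C3 female 3, with 0.179 CPM.

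No comparison of Afp passed the test. Females over males gave a log2 fold change of -0.67 in B6 (SE 0.30, 95% interval -1.30 to -0.05, adjusted p = 0.0879) and -0.82 in C3 (SE 0.35, 95% interval -1.55 to -0.08, adjusted p = 0.0696). C3 over B6 gave -0.73 in females (SE 0.34, adjusted p = 0.106) and -0.58 in males (SE 0.32, adjusted p = 0.162). At this depth the intervals include both changes near 0 and changes of more than 1 on the log2 scale, so these data do not settle the size of the difference.

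H19 was lower still, with 10, 12, 9, 22 and 11 counts in B6 females and 6, 6, 1, 2 and 5 in the males, and 12, 14, 16, 25 and 27 in C3 females and 2, 44, 7, 3 and 4 in the males. It was at or under 3 counts in 4 libraries, all of them male. The means were 0.327 ± 0.157, 0.121 ± 0.0783, 0.525 ± 0.236 and 0.354 ± 0.514 CPM (SD, n = 5). All B6 females were above all B6 males, by as little as 0.197 against 0.192 CPM, whereas in C3 a single male, mouse 2 with 1.27 CPM, was above every female and the other 4 were below them all.

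H19 was not called in any comparison with all livers. Females over males gave 1.51 in B6 (SE 0.57, 95% interval 0.30 to 2.71, adjusted p = 0.0456) and 0.75 in C3 (SE 0.46, 95% interval -0.21 to 1.70, adjusted p = 0.198). C3 over B6 gave 0.66 in females (SE 0.44, adjusted p = 0.272) and 1.42 in males (SE 0.58, adjusted p = 0.0624). The result in C3 rested on C3 male 2. Without that liver the log2 difference between the sexes in C3 was 2.01 and that between the strains in males 0.14. The liver was picked for its H19 level and the gene had passed the filter through the C3 females, so these values are a description and no test. H19 levels also moved with the pool, at a mean of 0.534 CPM in pool 1, 0.222 in pool 2 and 0.179 in pool 3. Between the sexes, differences on the log2 scale within these pools were 1.11, 0.54 and 1.59 in B6 and 0.50, 1.48 and 1.62 in C3.

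Of the 6 genes of the H19 domain and its imprinted neighbourhood, 2 were tested. Igf2, the reciprocally imprinted growth factor gene, did not pass the filter, with group means between 0.122 and 0.227 CPM. Cdkn1c, a maternally expressed inhibitor of the cell cycle on the same chromosome, was higher in females in B6 (log2 fold change 1.31, SE 0.12, adjusted p = 1.4e-07) and C3 (1.25, SE 0.12, adjusted p = 2.3e-07). Its level was 3.02 ± 0.886 and 1.21 ± 0.343 CPM in B6 females and males and 3.62 ± 0.890 and 1.70 ± 0.336 CPM in the C3 mice (SD, n = 5). The call in C3 was lost without the pool term (1.10, adjusted p = 0.0019). Cdkn1c was not called between the strains, and neither gene was called in the interaction.

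**Figure D4:**
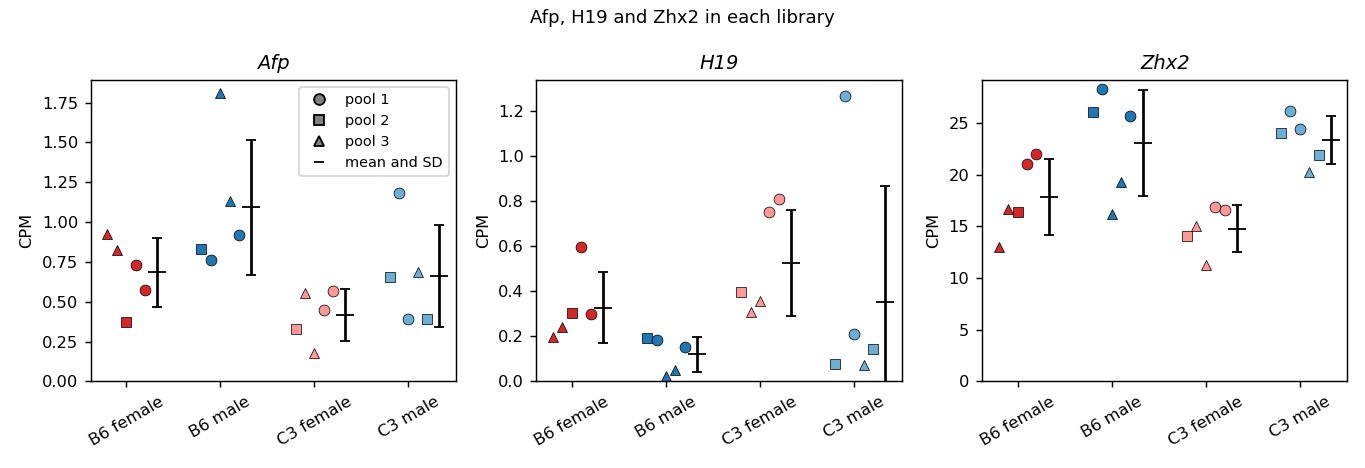
Scaled level (CPM) of Afp, H19 and Zhx2 in each liver by group, with the mean and SD of 5 mice beside the points, the pool given by the marker shape and the lower end of the SD bar of H19 in C3 males, which would fall under 0, left off. C3 male 2 stands at 1.27 CPM of H19, and in Zhx2 the C3 females lie below all C3 males.

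Zhx2 was lower on average in females than in males of both strains, and the difference was called in C3. Its level in mice 1 to 5 was 13.0, 16.7, 16.4, 21.1 and 22.0 CPM in B6 females and 26.0, 28.3, 16.2, 19.2 and 25.6 CPM in B6 males. In C3 it was 14.04, 15.003, 11.3, 16.8 and 16.6 CPM in females and 24.0, 26.2, 24.4, 20.2 and 21.9 CPM in males. The sexes overlapped in B6, whereas all C3 females lay below all C3 males. The means were 17.8 ± 3.70, 23.1 ± 5.12, 14.8 ± 2.26 and 23.4 ± 2.31 CPM (SD, n = 5).

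The sex difference in C3 was called, with a log2 fold change of -0.61 in females over males (SE 0.09, 95% interval -0.81 to -0.41, adjusted p = 8.8e-05). In B6 it was -0.37 (SE 0.09, adjusted p = 0.0049), which did not meet both criteria. That Zhx2 passed in C3 and not in B6 does not set the strains apart, since the interaction was -0.24 (adjusted p = 0.387). The strains gave -0.26 in females (SE 0.09, adjusted p = 0.0384) and -0.02 in males (SE 0.09, 95% interval -0.21 to 0.18, adjusted p = 0.913). Zhx2 also moved with the pool, at a mean of 22.6 CPM in pool 1, 20.5 in pool 2 and 15.9 in pool 3. Within pools 1, 2 and 3 the sex difference was -0.59, -0.71 and -0.63 in C3 and -0.32, -0.67 and -0.26 in B6. In a model without the pool the sex difference in C3 was -0.66 with an adjusted p of 0.0072, and it was no longer called. The tested genes closest in profile to Zhx2 over the 20 livers were Aars (root mean square difference 0.149, r = 0.914), Nacc1 (0.150) and Ywhag (0.158).

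**Figure D5:**
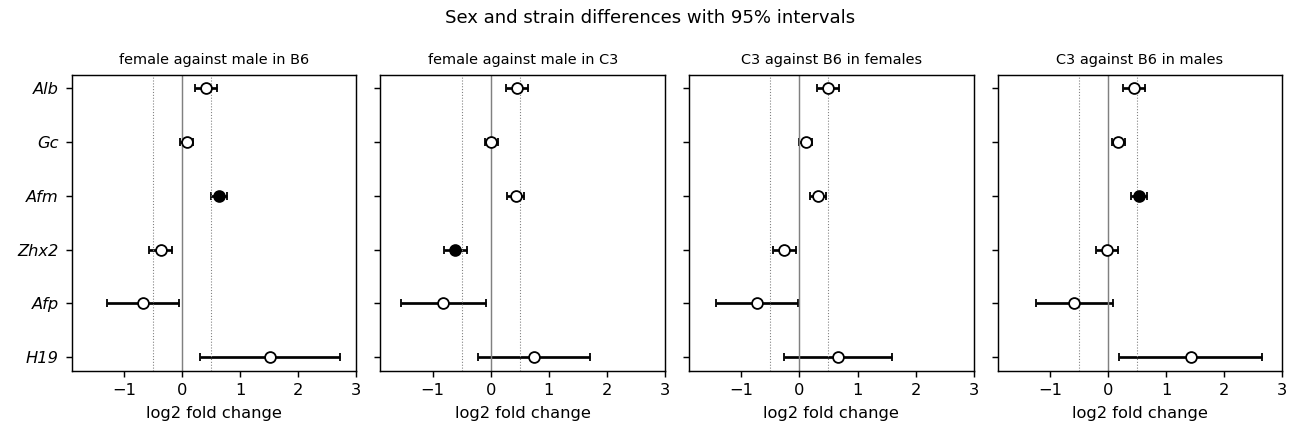
Log2 fold change of each gene in 4 comparisons, as the estimate of edgeR with its 95% interval, where filled points are called and dotted lines mark a log2 fold change of 0.5 in either direction. Afm is called between the sexes in B6 and between the strains in males, and Zhx2 between the sexes in C3, while the intervals of Afp and H19 are the widest.

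Zhx2 was then set beside the genes it is known to repress, liver by liver. This was done among mice of a group, with group and pool removed. Zhx2 gave r = 0.11 with Afp (rho = 0.04, permutation p = 0.657, adjusted p = 0.735). For H19 the values were r = 0.12 (rho = 0.09, permutation p = 0.618, adjusted p = 0.735). Both RNAs had few counts over the 20 livers. With the group alone removed, Zhx2 gave r = 0.65 with H19 (rho = 0.75, permutation test, adjusted p = 0.00365 and 9.75e-04). Its r with Afp was then -0.071. Like Zhx2, H19 was highest in pool 1 and lowest in pool 3. The relatives of Zhx2, which form heterodimers with it, were not called in any of the 5 comparisons. Zhx1 had group means between 78.4 and 89.5 CPM and Zhx3 between 84.9 and 117 CPM, and the sex difference in C3 was -0.03 (adjusted p = 0.603) and -0.30 (adjusted p = 0.0033).

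Gpc3, Lpl and Elovl3 have also been described as regulated by Zhx2, and 2 of the 3 were called in some comparison. Elovl3, a fatty acid elongase, was at 9.35 ± 3.31 and 757 ± 297 CPM in B6 females and males and 3.35 ± 1.62 and 496 ± 142 CPM in the C3 mice (SD, n = 5). Females over males gave -6.32 in B6 (SE 0.35, adjusted p = 1.4e-10) and -7.28 in C3 (SE 0.37, adjusted p = 4.4e-11). Lpl, the lipoprotein lipase, which is expressed in fetal liver and low in adult hepatocytes, was at 15.1 ± 0.976, 20.5 ± 2.89, 12.3 ± 2.41 and 57.7 ± 12.7 CPM in the same order. It was lower in females in C3 (-2.25, SE 0.15, adjusted p = 3.9e-09) and higher in C3 than B6 males (1.51, SE 0.15, adjusted p = 2.3e-07). Its interaction of -1.80 (SE 0.21, adjusted p = 6.0e-05) showed that the sex difference differed between the strains. Gpc3, an oncofetal glypican, was between 0.804 and 1.19 CPM in the group means and was not called.

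Of 16 fetal liver and oncofetal genes, Lpl and Gpc3 among them, 9 were tested. Those without a test included Igf2 and Dlk1. Between the sexes, 0 were called higher and 1 lower in B6, and 0 higher and 2 lower in C3. Sox9, a transcription factor of bile duct and progenitor cells, was lower in females in B6 (-1.42, SE 0.17, adjusted p = 5.2e-06) and C3 (-0.84, SE 0.17, adjusted p = 8.4e-04). The other bile duct and progenitor markers checked did not fall with it in C3, as given below. Between the strains, 1 gene was called higher and 0 lower in females, again Sox9 (0.85, SE 0.17, adjusted p = 9.5e-04). In males 1 was called higher, Lpl, and 2 lower, Cd24a, a surface glycoprotein of progenitor cells (-0.93, SE 0.18, adjusted p = 6.4e-04), and Scd2, a desaturase of the fetal liver (-0.62, SE 0.12, adjusted p = 4.9e-04). The medians of the list were 0.04 and 0.15 between the sexes in B6 and C3 and -0.18 and -0.34 between the strains in females and males. The calls of Sox9, Cd24a and Scd2 were lost without the pool term. Leaving out single livers ended the call of Sox9 in 9 of 10 runs between the sexes in C3 and in 8 of 10 between the strains in females, that of Cd24a in 7 of 10 and that of Scd2 in 6 of 10.

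Markers of other liver cells moved with sex and strain beside these genes. The summed level of 4 Kupffer cell markers (Clec4f, Adgre1, Cd5l and Vsig4) was 320 to 427 TPM in females and 192 to 309 in males of B6, and 222 to 332 and 137 to 207 in those of C3. Of the 4, 1 was called higher in females in each strain (Vsig4), 3 were called lower in C3 females and 2 lower in C3 males than in B6. Ptprc, a pan-leukocyte marker, was the one of 3 lymphocyte markers that was called, higher in females in C3 (0.74, adjusted p = 8.3e-04) and lower in C3 than B6 males (-0.74, adjusted p = 6.6e-04), and the 3 summed to 9.52 to 12.7, 5.35 to 9.38, 5.74 to 9.85 and 3.10 to 3.91 TPM in the 4 groups. Of 5 markers of cholangiocytes and progenitors, edgeR called Sox9 alone and DESeq2 1 marker between the strains in males, where edgeR called 0 and 2 had an unadjusted p under 0.05, and their sum lay between 21.4 and 52.2 TPM. Sox9 did not move with Krt19, Krt7, Epcam and Spp1. Females over males gave 0.66, 0.37, 0.48 and 0.45 for these in C3, and between -0.08 and 0.19 in B6. C3 over B6 in females gave -0.12, -0.01, -0.01 and -0.13, while Sox9 rose. Of 4 markers of sinusoidal endothelium, 3 of stellate cells and 4 of cycling cells, 0 were called by edgeR. At an unadjusted p under 0.05, endothelial markers numbered 4 and 4 between the sexes in B6 and C3. Between the strains in females and males they numbered 1 and 2. In the same order the stellate markers numbered 3, 1, 3 and 2 and the cycling markers 2, 2, 2 and 3. DESeq2 called 1 stellate marker between the strains in females. Counts at an unadjusted p or by DESeq2 are not set against all genes here, so they are no result about a cell type. The endothelial, stellate and cycling markers summed to between 166 and 278, 33.1 and 85.4, and 1.18 and 7.80 TPM. The 6 hepatocyte markers summed to 20388 to 25713 TPM in females and 23578 to 27737 in males of B6, and to 25865 to 35130 and 30697 to 38825 in those of C3. Of these, Apoa1 was called, higher in C3 females (0.84, adjusted p = 1.3e-05) and C3 males (0.71, adjusted p = 9.9e-05). Apoa1 was a large part of the sum, at means of 11044 and 13842 TPM in B6 females and males and 18986 and 22375 in those of C3. The median log2 fold change of the 6 was -0.34 and -0.28 between the sexes in B6 and C3. Between the strains it was -0.06 in females and 0.16 in males, so the higher sums in C3 do not stand for all 6. Leaving out single livers ended the calls of Ptprc in 8 of 10 runs between the sexes and 7 of 10 between the strains, that of Vsig4 in 6 of 10 between the sexes in C3 and 3 of 10 between the strains in males, and that of Adgre1 between the strains in males without B6 male 1 or C3 male 4. Without the pool term the calls of Apoa1 (adjusted p = 0.0057 in females, 0.0117 in males), Adgre1 and Clec4f were lost, as were those of Vsig4 and Ptprc between the sexes in C3. The part of these cell markers in the differences of the 6 members was not tested.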

How the data were processed

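Liver RNA of 20 mice was analysed, grouped by the strain and sex in the sample labels. The authors trimmed reads with Cutadapt 1.9.1, aligned them to mm9 with STAR 2.5.1b and counted read pairs on RefSeq genes with featureCounts (Subread 1.5.0-p1), without multimapping or multi-overlapping pairs. What the authors deposited are these raw counts, not normalized, and TPM values made from them. The headers of the symbol and identifier columns are exchanged in both tables, which were read by content. The counts of Alb were also divided by the total of each library. Counts were fitted in R 4.3.3 with edgeR 4.0.16 (filterByExpr on the 4 groups, TMM, group and pool over all 20 libraries, quasi-likelihood test), with Benjamini-Hochberg adjustment over 13704 genes. CPM are scaled by TMM, and TPM served for levels between genes. Correlations used residuals of log2 CPM (prior count of 2) and 100000 resamples. These shuffled all 20 residuals without regard to group or pool and made no allowance for the terms fitted, so their p-values may be too small. For these and for the Alb share an adjusted p under 0.05 was taken as passing. The pipeline was tested on simulated data.

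Alternatives were other scalings, no filter, no pool term, a replicate block, only the groups compared, other thresholds, DESeq2 1.42.0, limma 3.58.1 on log2(TPM + 1) and log2(TPM + 0.1), and leaving out each liver. The members and the gene lists were chosen with earlier results of these data known. Every member is named, and of each list the genes called in any comparison, with 5830473C10Rik, Zhx1 and Zhx3 whether called or not, and for Afm and Zhx2, as members called, the 3 genes closest in profile. Genes not called (Hnf4a, Cebpa, Zbtb20, Fcgrt, Gpc3, Igf2 and Dlk1) and the cell markers that make up a printed sum were named beyond this rule. A gene of 1 list is not reported here and was left out of its counts. Protein sequences were not used here, so no identity between the proteins is given. The Wilson intervals of the Alb share and the limit of 3 counts cover counting error only, since reads without molecular identifiers are not independent molecules.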

Additional observations from a re-analysis of the deposited data

Results flagged for a closer look

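H19 stood apart in 2 livers. In C3 males, mouse 2 had 1.27 CPM (44 counts) while the other 4 livers lay between 0.0713 and 0.210 CPM, and in B6 females, mouse 4 had 0.596 CPM (22 counts) while the others lay between 0.197 and 0.303 CPM. In each case the gap to the nearest liver exceeded the 95% critical value of Dixon's test for 5 samples, 0.71 of the range, at 0.884 and 0.733. Both livers were in pool 1, where H19 was highest on average. Of 28 groups of values tested in this way these 2 were marked, and chance alone marks about 1 in 20.

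The sex difference of Lpl differed between the strains, with an interaction of -1.80 on the log2 scale (adjusted p = 6.0e-05, quasi-likelihood test of edgeR). In 5 livers per group, females over males gave -0.44 in B6 and -2.25 in C3.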

How the results depend on the processing

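The Alb share kept its direction with an adjusted p under 0.05 in all 12 alternative results and all 40 results without 1 liver. These numbers count a setting or a liver left out once for each comparison. Without 1 liver the differences were 2.27 to 2.92 points between the sexes in B6 and 3.06 to 3.61 in C3. Between the strains they were 2.71 to 3.34 in females and 1.97 to 2.56 in males. The planned removal of mitochondrial genes from the total was not run, since the table lists 0 such loci. The number of members called (1, 1, 0, 1 and 0 in the 5 comparisons) became 4, 3, 3 and 3 in the first 4 at an adjusted p under 0.05 with no minimum fold change. The share of all genes under this looser rule is not given here, so these counts are not set against all genes. With upper quartile scaling or library totals 2 members were called between the sexes in C3, where Alb passed at 0.52. Between the strains in males the number called was then 0. With limma on log2(TPM + 0.1) the number was also 2 and 0, but between the sexes in C3 Afm (0.54) passed beside Zhx2. With log2(TPM + 1) it was 0 between the strains in males and 1 between the sexes in C3. There Afm passed (0.53) and Zhx2 did not (-0.45). Without the pool term the number of members called was 0 between the sexes in C3. TPM with 0.1 added moved the median of all genes from 0.0018 to 0.114 between the sexes in B6 and from 0.0146 to 0.120 in C3. Without 1 liver the number of members called lay between 1 and 1, 1 and 2, 0 and 1, 1 and 1, and 0 and 0, and the cause of the changes was not tested beyond the livers named in the text.

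Some values that were not called changed sign, all but the H19 interaction (-0.76) and the Afp interaction (-0.14) within 0.1 of 0. For Gc between the sexes in C3 this was so with DESeq2 size factors (-0.0059), Alb left out of the totals (-0.0015), no filter (-0.00082) and DESeq2 (-0.0076). It was so for Zhx2 between the strains in males (0.017) and the Alb interaction (-0.026) without the pool term, and for the Afp interaction with log2(TPM + 1) (0.017). Zhx1 turned positive between the sexes with upper quartile scaling (0.017 in B6, 0.036 in C3), library totals (0.021, 0.038), log2(TPM + 1) (0.065, 0.080) and log2(TPM + 0.1) (0.067, 0.082), and its interaction was -0.029 without the pool term. For 5830473C10Rik between the strains in females the values were -0.039 with library totals and -0.032 and -0.033 with limma. Without 1 liver, Gc between the sexes in C3 ranged from -0.015 to 0.032, Zhx2 between the strains in males from -0.070 to 0.058, and the interactions of Alb from -0.0031 to 0.114, of Afp from -0.33 to 0.19 and of H19 from -1.15 to 0.52. 5830473C10Rik between the strains in females ranged from -0.022 to 0.121 and Zhx1 between the sexes in C3 from -0.050 to 0.00099.

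The correlation of Alb and Afm passed in both alternatives. With the group alone removed, 6 other pairs passed at an adjusted p under 0.05, Alb with Zhx2 (r = 0.67), Afm with H19 (0.70) and Zhx2 (0.78), Gc with Zhx2 (-0.72), H19 with Zhx2 (0.65) and Gc with H19 (-0.51, adjusted p = 0.0465). In the same alternative the sign changed for Alb with Gc (-0.27), Afm with Gc (-0.44), Gc with H19 and Afp with Zhx2 (-0.071), and for the last pair also with log2(TPM + 1) (-0.057).

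Same-numbered mice did not deviate together once the pool was removed, with mean correlations between -0.013 and 0.0997, so the numbers were not taken as pairs. With the replicate number as a block the members called stayed at 1, 1, 0, 1 and 0. The block gave Afm 0.64 between the sexes in B6 and Zhx2 -0.60 in C3. Of the 6 members, Afp and H19 had the fewest counts and the widest intervals.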
